A study of Mus musculus with 12 samples.

Results

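The genes described here are 10 core components of the circadian clock, namely Clock, Per1, Per2, Per3, Cry1, Cry2, Nr1d1, Nr1d2, Dbp and Tef, read by symbol from 12 RNA-seq count tables of cultured mouse mesangial cells (MMC). They were 10 of the 25230 genes listed, and all 10 were among the 11477 genes that passed the expression filter (over 1 RPKM, the reads per kilobase of exon scaled to the depth of the library, in at least 1 library) and were tested. MMC are the contractile, matrix-producing cells between the capillaries of the kidney glomerulus; these were primary cultures grown from pooled glomeruli and used after several passages. The libraries fell into 4 groups of 3. WT-SD were wild-type cells kept in serum-depleted medium, WT-TGF were wild-type cells given transforming growth factor-β (TGF-β), a cytokine that drives matrix production, at 10 ng/ml for 24 h, and KO-SD and KO-TGF were the same 2 conditions in cells of the lncMGC-KO5 line. In that line Cas9 with a pair of guides removed sequence beside the transcription start of lncMGC, the long non-coding RNA that hosts the miR-379 cluster, on a C57BL/6J background. The RNA lncMGC itself was not analysed here, so the genotypes are as labelled. KO stands for a single mutant line, and the number of mice or cultures behind each genotype is not given in the sources used here. Genotype and origin of the culture therefore cannot be told apart. The study calls the 3 samples of a group independent without saying whether they were separate cultures or animals, so that the p-values measure the spread between these libraries. All groups carry the time label 24 h, and no clock time of collection is given. With 1 time point per group, a change in the level of a rhythmic transcript and a shift of its phase cannot be told apart.

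In mammalian cells the clock is a loop of transcription and feedback. CLOCK pairs with BMAL1, the product of Arntl, and the pair binds E-boxes in the promoters of the Per and Cry genes, whose proteins return to the nucleus and inhibit it. The same pair drives Nr1d1 and Nr1d2, which encode the nuclear receptors REV-ERBα and REV-ERBβ. These repress Arntl and Nfil3 through ROR elements, at which the ROR receptors activate. Dbp and Tef encode bZIP activators of D-box genes, and the repressor NFIL3 competes for the same sites. The kidney is a rhythmic organ in which clock proteins govern the daily course of filtration and of salt and water transport, and most cultured cells keep a clock of their own.

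The libraries held 19898050 to 22827706 counts on genes. The pairs of libraries within groups differed by more than sampling noise, with a chi-square over degrees of freedom between 1.35 and 5.41. The share of reads outside annotated exons was 15.2% to 15.4% in WT-SD, 12.2% to 12.5% in WT-TGF, 12.7% to 13.4% in KO-SD and 10.3% to 10.9% in KO-TGF. All 5 mesangial markers (Pdgfrb, Itga8, Acta2, Tagln and Des) were above the floor of 3 counts in every group. Their summed level was 2501 to 2638 normalised counts per 1000000 counts (CPM) in WT-SD, 5577 to 5736 in WT-TGF, 4803 to 4966 in KO-SD and 10507 to 10590 in KO-TGF, most of it Acta2 and Tagln. The low markers Des and Itga8 went against this sum with TGF-β in both genotypes. Between genotypes Des was lower in KO in both conditions, and Itga8 in TGF but not in SD. The group means were 7.68, 5.61, 0.529 and 0.247 CPM for Des and 2.90, 1.61, 3.05 and 0.637 CPM for Itga8 in the same order. The 8 macrophage markers summed to 24.7 to 26.2 CPM in WT-SD, 15.6 to 19.1 CPM in WT-TGF, 2.06 to 2.22 CPM in KO-SD and 0.801 to 1.55 CPM in KO-TGF, and Adgre1, C1qa and C1qb had no counts in the KO groups. The 5 podocyte markers summed to 440 to 465 CPM in the WT groups and to 203 to 222 CPM in the KO groups, carried by Podxl, Wt1 and Synpo. The 5 tubular epithelial markers, mostly Lrp2, summed to 45.8 to 48.8 CPM in WT-SD, 11.9 to 12.9 in WT-TGF, 16.5 to 19.3 in KO-SD and 3.58 to 3.96 in KO-TGF, so that they were lower with TGF-β in both genotypes. The 5 endothelial markers summed to at most 1.01 CPM in any library. The part of the exon share and of these markers in the results below was not tested.

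All 10 clock genes were expressed in serum-depleted WT cells. Per length of exon the highest in WT-SD was Nr1d1, at 27.8 ± 1.14 RPKM (SD, n = 3 here and below), followed by Nr1d2 at 22.6 ± 0.746, Tef at 19.3 ± 0.367, Dbp at 16.9 ± 0.758 and Clock at 11.4 ± 0.192 RPKM. The Period and Cryptochrome genes came after these. Per1 stood at 5.52 ± 0.255, Per3 at 5.02 ± 0.0729, Cry2 at 4.14 ± 0.189, Per2 at 2.54 ± 0.0349 and Cry1 at 2.43 ± 0.195 RPKM. Among neighbours in this order, the libraries of Per2 (2.50 to 2.57 RPKM) and Cry1 (2.21 to 2.58 RPKM) overlapped, whereas those of the other neighbouring genes did not. The range of the 4 group means on the log2 scale was 1.01 for Per3, 0.98 for Dbp and 0.55 for Tef. It lay between 0.19 for Per1 and 0.34 for Cry1 for the other 7 genes, so that Per3, Dbp and Tef carried most of the variation.

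**Figure D1:**
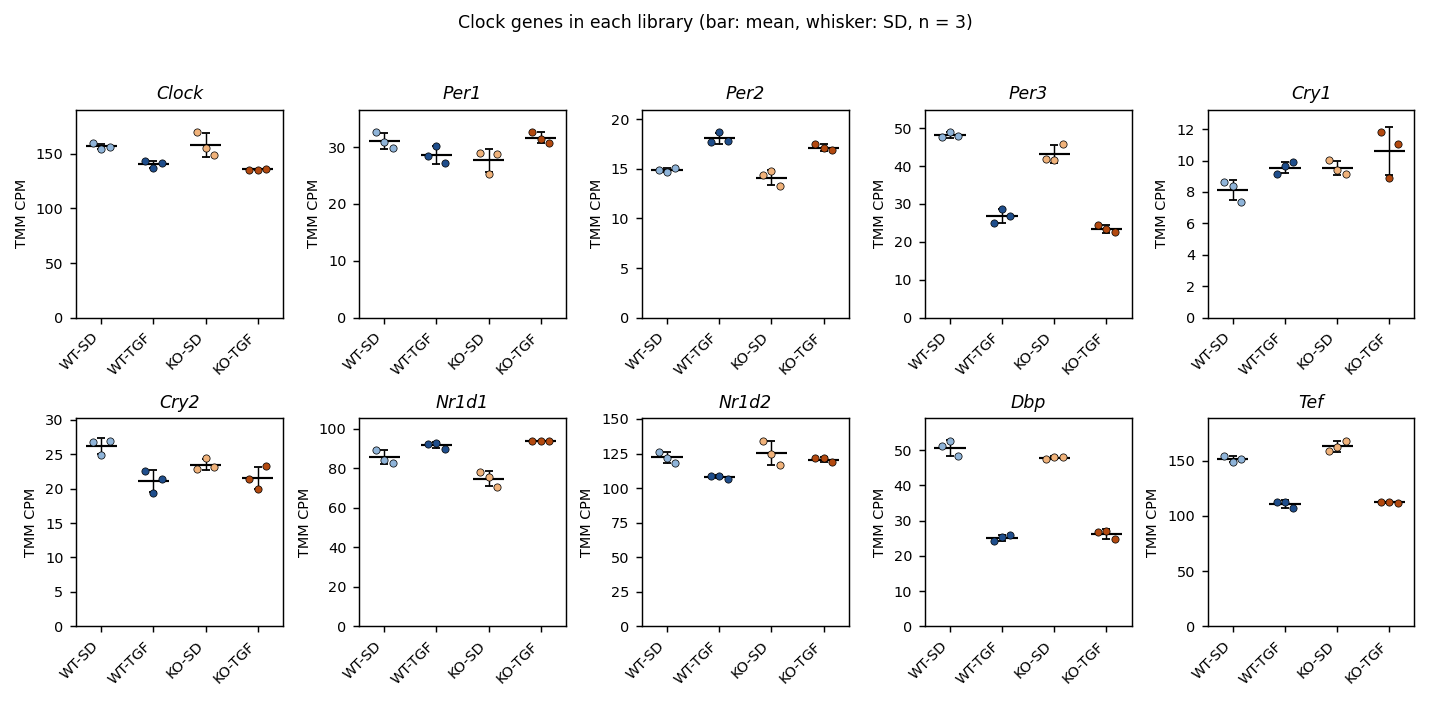
Level of each of the 10 clock genes in CPM after TMM normalization (y axis) in the 4 groups (x axis), with a point for each library, a bar at the mean and a whisker for the SD (n = 3). In both genotypes the TGF libraries of Per3, Dbp and Tef lie below all SD libraries, while Per2 lies above them.

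The first comparison asked how the clock genes differed between TGF-β and serum-depleted conditions in WT cells. Of the 10 genes, 6 (Clock, Per3, Cry2, Nr1d2, Dbp and Tef) were lower and 3 (Per2, Cry1 and Nr1d1) were higher at a false discovery rate (FDR) of 5% by the quasi-likelihood test of edgeR, adjusted after Benjamini and Hochberg, and Per1 was not called. Of all genes tested, 36.5% were called lower and 35.9% higher, and the median log2 fold change was -0.17 over the 10 genes and -0.01 over all genes. In KO cells 4 of the 10 (Clock, Per3, Dbp and Tef) were lower and 3 (Per1, Per2 and Nr1d1) were higher, beside 39.0% and 35.0% of all genes, and the medians were -0.09 and -0.02. Each comparison between SD and TGF contrasts its own 6 libraries, and the edgeR fit shares the TMM normalization and 1 estimate of the spread over all 12. Leaving out a library of 1 genotype can thus move the values of the other. In RNA of whole cultures, fewer cells of a kind and less RNA per cell cannot be told apart.

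The largest decreases were those of Dbp, the D-box activator at chr7:45705100-45710203 (mm10, plus strand), and of Per3, a Period gene dispensable for the core rhythm, at chr4:150997018-151044707 (minus strand). Dbp had 51.1, 52.7 and 48.2 CPM in WT-SD, against 24.2, 25.3 and 25.9 CPM in WT-TGF. It had 47.4, 48.1 and 47.9 CPM in KO-SD and 26.6, 27.2 and 24.7 CPM in KO-TGF. In both genotypes every TGF library was below every SD library. The log2 fold change of Dbp was -1.01 (SE 0.0476, edgeR adjusted p = 4.20e-18) in WT, where its level fell by 50.4%, and -0.87 (SE 0.0491, edgeR adjusted p = 3.21e-16) in KO, where it fell by 45.3%. The 3' end of Dbp overlaps Sphk2 on the other strand by 741 bases, and the counting used strand.

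Per3 had 47.7, 49.0 and 47.9 CPM in WT-SD, against 24.9, 28.6 and 26.9 CPM in WT-TGF. In KO-SD it had 42.0, 41.5 and 45.9 CPM and in KO-TGF 24.5, 23.3 and 22.5 CPM. The SD and TGF libraries again did not overlap in either genotype. Its log2 fold change was -0.85 (SE 0.0509, edgeR adjusted p = 2.06e-15) in WT, where it fell by 44.4%, and -0.88 (SE 0.0546, edgeR adjusted p = 3.32e-15) in KO, where it fell by 45.7%. Tef, which encodes a relative of DBP and lies at chr15:81802673-81826863 (plus strand), fell in the same libraries by a smaller amount. It had 154, 149 and 152 CPM in WT-SD against 113, 112 and 107 CPM in WT-TGF, and 158, 162 and 168 CPM in KO-SD against 112, 113 and 112 CPM in KO-TGF. No TGF library of Tef reached the lowest SD library of either genotype. For Tef the log2 fold change was -0.46 (SE 0.0306, edgeR adjusted p = 2.89e-14) in WT and -0.54 (SE 0.0308, edgeR adjusted p = 5.24e-16) in KO.

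Clock, which encodes the activator that pairs with BMAL1 (chr5:76209868-76305603, minus strand), was slightly lower with TGF-β. The WT-SD libraries had 160, 154 and 156 CPM and the WT-TGF libraries 143, 137 and 142 CPM. The KO-SD libraries had 170, 155 and 149 CPM and the KO-TGF libraries 135, 135 and 137 CPM. KO-SD replicate 1 was the highest of the 12 libraries, and the SD and TGF libraries did not overlap within a genotype. For Clock the log2 fold change was -0.16 (SE 0.0343, edgeR adjusted p = 0.000153) in WT and -0.22 (SE 0.0349, edgeR adjusted p = 1.53e-06) in KO.

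The 3 Period genes, which encode the repressors that enter the nucleus with the Cryptochromes, went different ways. Per2 (chr1:91415977-91459351) rose, from 14.9, 14.6 and 15.0 CPM in WT-SD to 17.7, 18.7 and 17.8 CPM in WT-TGF, and from 14.4, 14.7 and 13.3 CPM in KO-SD to 17.5, 17.1 and 16.8 CPM in KO-TGF. Its libraries did not overlap between SD and TGF, and its log2 fold change was 0.28 in both genotypes, with an SE of 0.0634 (edgeR adjusted p = 0.000232) in WT and 0.0666 (edgeR adjusted p = 0.000412) in KO. Per1 (chr11:69095108-69109965, plus strand) had 32.6, 30.9 and 29.8 CPM in WT-SD, against 28.4, 30.3 and 27.3 CPM in WT-TGF, which overlapped. In KO it had 29.0, 25.3 and 28.8 CPM in SD and 32.7, 31.5 and 30.8 CPM in TGF, which did not overlap. Its log2 fold change was -0.12 (SE 0.0557, edgeR adjusted p = 0.0604, not called) in WT and 0.19 (SE 0.0574, edgeR adjusted p = 0.00375) in KO.

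The Cryptochrome genes encode the other repressors of the CLOCK and BMAL1 pair. Cry2 (chr2:92403646-92434085, minus strand) had 26.8, 24.8 and 26.9 CPM in WT-SD, against 22.5, 19.4 and 21.3 CPM in WT-TGF. It had 22.8, 24.4 and 23.2 CPM in KO-SD and 21.4, 20.0 and 23.2 CPM in KO-TGF, and only the WT groups were separate. The log2 fold change of Cry2 was -0.31 (SE 0.0625, edgeR adjusted p = 4.88e-05) in WT and -0.12 (SE 0.0653, edgeR adjusted p = 0.0921, not called) in KO. Cry1 (chr10:85131700-85185054, minus strand), the least abundant of the 10 in CPM, had 8.61, 8.38 and 7.39 CPM in WT-SD libraries against 9.17, 9.62 and 9.87 CPM with TGF-β. In the KO libraries it had 10.0, 9.42 and 9.13 CPM in SD against 11.8, 8.92 and 11.1 CPM with TGF-β. KO-TGF replicate 2 lay below all KO-SD libraries. The log2 fold change of Cry1 was 0.23 (SE 0.0972, edgeR adjusted p = 0.0335) in WT and 0.16 (SE 0.0953, edgeR adjusted p = 0.142, not called) in KO, where it became 0.29 (edgeR adjusted p = 0.00928) without KO-TGF replicate 2.

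Among the REV-ERB repressors, Nr1d1 (chr11:98767932-98775377, minus strand) had 89.5, 84.4 and 82.8 CPM in WT-SD, against 92.6, 92.6 and 89.9 CPM in WT-TGF. It had 78.1, 75.5 and 70.8 CPM in KO-SD and 94.0, 93.7 and 93.7 CPM in KO-TGF, a wider gap. The log2 fold change of Nr1d1 was 0.10 (SE 0.0375, edgeR adjusted p = 0.0176) in WT and 0.33 (SE 0.0386, edgeR adjusted p = 7.62e-09) in KO. Nr1d1 overlaps the thyroid hormone receptor gene Thra by 1075 bases. Nr1d2 (chr14:18204056-18239106, minus strand) had 126, 122 and 118 CPM in WT-SD, against 108, 109 and 107 CPM in WT-TGF. It had 134, 125 and 117 CPM in KO-SD and 122, 121 and 119 CPM in KO-TGF, which overlapped. For Nr1d2 the log2 fold change was -0.18 (SE 0.0374, edgeR adjusted p = 0.000109) in WT and -0.05 (SE 0.0375, edgeR adjusted p = 0.188, not called) in KO.

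The decreases of Clock, Per3, Dbp and Tef in both genotypes, the increase of Nr1d1 in KO, and the decreases of Cry2 and Nr1d2 in WT were called under all 18 alternative settings tried, 12 of which left out 1 library. The WT calls of Cry1 and Nr1d1 were not so stable. Cry1 lost its call without WT-SD replicate 3, WT-TGF replicate 2, WT-TGF replicate 3 or KO-TGF replicate 3 (log2 fold change 0.17 to 0.23), and Nr1d1 without WT-SD replicates 2 or 3, WT-TGF replicates 1 or 2, or any KO-TGF library (0.08 to 0.10). Per1 in WT gained a call without WT-SD replicate 3, WT-TGF replicate 2, KO-SD replicates 1 or 2, or any KO-TGF library (-0.16 to -0.12). In KO, Nr1d2 gained a call without KO-SD replicate 3 (-0.10) and Cry2 without KO-TGF replicate 3 (-0.16). Scaling by library size alone, without TMM factors, moved the median log2 fold change of all genes to -0.16 in WT and -0.23 in KO. Under it Nr1d1 in WT (-0.05), Per1 in KO (-0.01) and Cry1 in KO (-0.05) changed sign, and Per2 kept its sign without a call (0.13 in WT, 0.08 in KO), as did Cry1 in WT (0.08). The same scaling added calls for Per1 in WT (-0.27) and for Cry2 (-0.32) and Nr1d2 (-0.26) in KO. DESeq2 did not call Cry1 (0.22) and Nr1d1 (0.09) in WT.

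**Figure D2:**
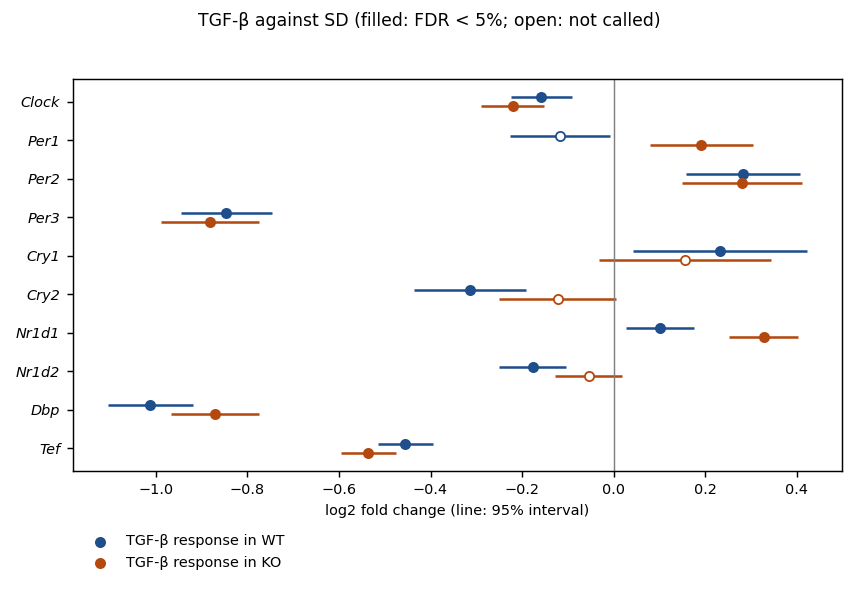
Log2 fold change between TGF-β and SD (x axis) of the 10 clock genes (y axis) in WT and KO cells, with lines for the 95% interval, filled points for calls at an FDR of 5% and open points for no call. Dbp, Per3 and Tef lie far left of zero in both genotypes, and Per1 and Nr1d1 lie further right in KO than in WT.

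Ratios of counts between paired genes of a library do not depend on how the libraries are scaled, and they were added after the values were seen; they show unequal change and were not tested. The ratio of Per3 to Per2 was 3.24 ± 0.0893 in WT-SD and 1.48 ± 0.0628 in WT-TGF, and 3.07 ± 0.346 in KO-SD and 1.37 ± 0.0323 in KO-TGF. Per3 thus had more counts than Per2 in every group, by a smaller margin with TGF-β. Counts also depend on exon length, so these ratios do not rank transcripts by abundance. Per length of exon, the mean of Per2 was above that of Per3 with TGF-β. It was 3.08 against 2.79 RPKM in WT-TGF and 2.93 against 2.44 RPKM in KO-TGF. The ratio of Dbp to Tef was 0.334 ± 0.0186 in WT-SD, 0.228 ± 0.0139 in WT-TGF, 0.294 ± 0.00733 in KO-SD and 0.233 ± 0.0107 in KO-TGF. The ratio of Nr1d2 to Nr1d1 was 1.43 ± 0.0176, 1.18 ± 0.00896, 1.67 ± 0.0378 and 1.29 ± 0.0166 in these groups in the same order. That of Cry2 to Cry1 was 3.24 ± 0.362, 2.21 ± 0.224, 2.47 ± 0.168 and 2.05 ± 0.217. In these 4 ratios the SD and TGF libraries of a genotype did not overlap. The ratio of Per1 to Per2 was 2.09 ± 0.106 in WT-SD and 1.59 ± 0.0456 in WT-TGF, which did not overlap, and 1.97 ± 0.230 in KO-SD and 1.85 ± 0.0204 in KO-TGF, which did. The ratio of Dbp, an output of the activators, to Arntl, which encodes one of them, was 2.49 ± 0.0770 in WT-SD and 0.645 ± 0.0381 in WT-TGF, and 2.41 ± 0.115 in KO-SD and 0.730 ± 0.0794 in KO-TGF. Dbp counts thus exceeded Arntl counts in the SD groups and were below them in the TGF groups. Per length of exon, the mean of Dbp stayed above that of Arntl with TGF-β. It was 8.40 against 5.18 RPKM in WT-TGF and 8.74 against 4.79 RPKM in KO-TGF.

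**Figure D3:**
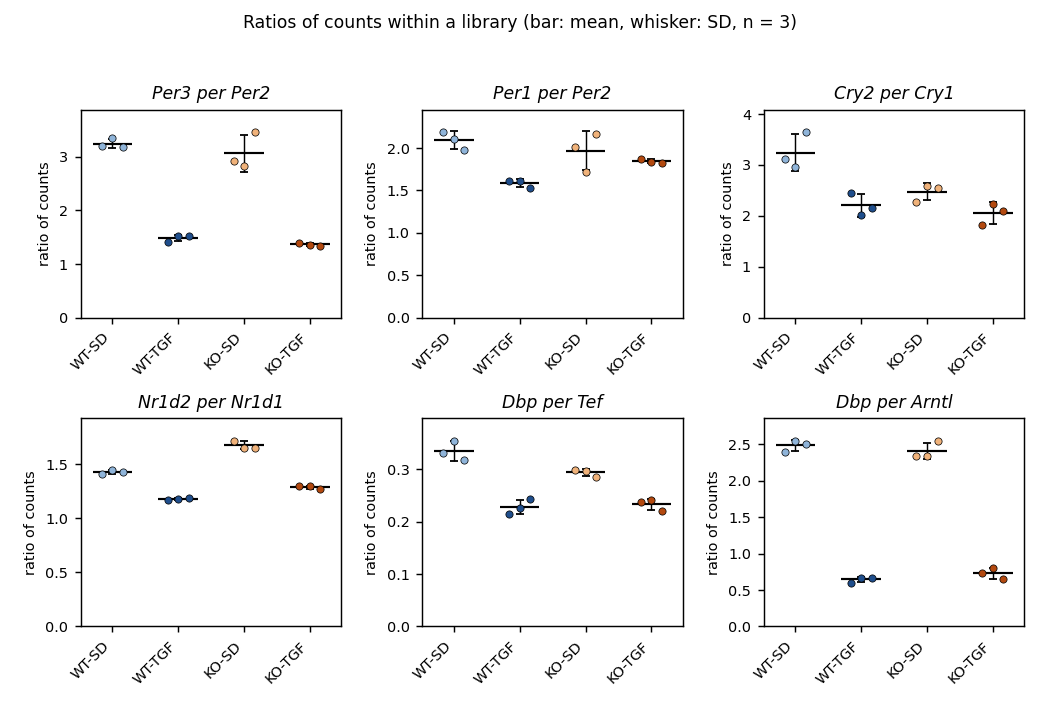
Ratios of the counts of paired clock genes within a library (y axis) in the 4 groups (x axis), with a point for each library, a bar at the mean and a whisker for the SD (n = 3). The ratio of Dbp to Arntl is above 2 in the SD groups and below 1 in the TGF groups. The counts are not scaled by exon length.

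Of 24 further clock genes listed by function, 18 passed the filter, and Npas2 and Usp2 were among those that did not. With TGF-β 13 of the 18 were higher and 4 lower in WT, with a median log2 fold change of 0.19, and 12 were higher and 4 lower in KO, with a median of 0.18. Among all genes, 35.9% were higher and 36.5% lower in WT, and 35.0% and 39.0% in KO. Bhlhe40, which encodes the E-box repressor DEC1, rose from 98.8, 95.7 and 91.8 CPM in WT-SD to 378, 380 and 376 CPM in WT-TGF. In KO it rose from 93.9, 95.4 and 93.3 CPM to 348, 349 and 347 CPM. This was the largest change among the 18 genes in both genotypes, at a log2 fold change of 1.99 (SE 0.0276, edgeR adjusted p = 1.22e-31) in WT and 1.88 (SE 0.0279, edgeR adjusted p = 5.15e-31) in KO. Its relative Bhlhe41, which encodes DEC2, had 69.0, 70.6 and 67.4 CPM in WT-SD, against 122, 122 and 119 CPM in WT-TGF. In KO-SD Bhlhe41 had 52.4, 52.0 and 51.1 CPM and in KO-TGF 135, 138 and 135 CPM. Its log2 fold change was 0.81 (SE 0.0327, edgeR adjusted p = 8.95e-20) in WT and 1.39 (SE 0.0341, edgeR adjusted p = 1.70e-25) in KO.

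Arntl, the partner of Clock, rose while Clock fell. Arntl had 21.3, 20.6 and 19.2 CPM in WT-SD, against 40.3, 37.9 and 38.8 CPM in WT-TGF. It had 20.2, 20.5 and 18.9 CPM in KO-SD and 36.4, 33.6 and 38.0 CPM in KO-TGF. Its log2 fold change was 0.94 (SE 0.0551, edgeR adjusted p = 1.16e-15) in WT and 0.86 (SE 0.0575, edgeR adjusted p = 2.21e-14) in KO. Nfil3, the D-box repressor, rose from 16.4, 16.7 and 18.4 CPM in WT-SD to 35.9, 36.8 and 39.7 CPM in WT-TGF, and from 16.5, 15.5 and 15.9 CPM in KO-SD to 38.0, 38.6 and 38.7 CPM in KO-TGF. For Nfil3 the log2 fold change was 1.13 (SE 0.0557, edgeR adjusted p = 1.43e-17) in WT and 1.26 (SE 0.0577, edgeR adjusted p = 1.46e-18) in KO. In the libraries where the D-box activators Dbp and Tef were lower, the D-box repressor was thus higher. Rora, which encodes an activator at ROR elements, was lower, with log2 fold changes of -0.60 (SE 0.0400, edgeR adjusted p = 2.40e-14) in WT and -0.79 (SE 0.0454, edgeR adjusted p = 4.41e-16) in KO. Wee1, a clock-driven kinase that holds cells before mitosis, was lower by log2 fold changes of -0.65 (SE 0.0571, edgeR adjusted p = 1.67e-11) and -1.17 (SE 0.0598, edgeR adjusted p = 2.73e-17). Usp2, a clock-driven deubiquitinase under the RPKM limit, was tested in a second fit without that limit and had log2 fold changes of -1.46 (SE 0.179, edgeR adjusted p = 1.37e-15) in WT and -1.09 (SE 0.185, edgeR adjusted p = 1.40e-08) in KO. All of these calls for Bhlhe40, Bhlhe41, Arntl, Nfil3, Rora and Wee1 held under the 18 alternative settings.

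**Figure D4:**
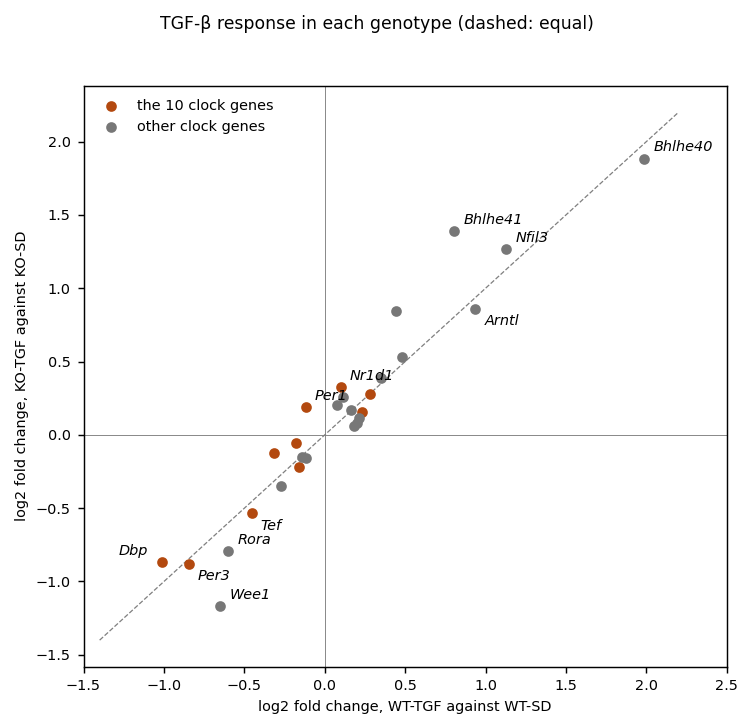
Log2 fold change between TGF-β and SD in WT (x axis) and in KO (y axis) for the 10 clock genes and the 18 further clock genes tested, with a dashed line where both are equal. Dbp, Per3 and Tef lie in the lower left corner with Rora and Wee1, and Bhlhe40, Nfil3, Arntl and Bhlhe41 lie in the upper right one.

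The promoters of the 10 genes and of the 24 further clock genes were searched for the 3 clock elements named above, in the RefSeq windows of GRCm38.p6 (the same coordinates as mm10) around each transcription start. These windows are short, of the length printed below, so elements farther from a start were not searched for. Windows were found for 9 of the 10 genes, and none for Per2. An E-box (CACGTG) stood in the windows of Per1, Cry1 and Tef, beside 8.09% of the 27025 genes with a window. A D-box (TTATGTAA or TTACGTAA, either strand) stood in that of Per3, beside 1.23% of genes, and a ROR element core (TAGGTCA or TGGGTCA, either strand) in none, beside 7.35% of genes. Of the further clock genes, 18 had windows. Bhlhe41 and Ciart held the E-box, the latter at 3 places, and Arntl and Nfil3 held the ROR element core. The 4 windows printed next are examples from the genes that were called with TGF-β and hold an element, and not all such genes are shown. They are Per3 with a D-box, Tef, the D-box activator, with an E-box, and Arntl and Nfil3, the targets of the REV-ERB repressors, with the ROR element core. Each is written 5′ to 3′ on the strand of the gene, with the element in capitals. They lie at chr4:151044616-151044915 (minus strand) for Per3, chr15:81802423-81802722 (plus strand) for Tef, chr7:113207261-113207560 (plus strand) for the second start of Arntl, and chr13:52980990-52981289 (minus strand) for Nfil3.
Per3: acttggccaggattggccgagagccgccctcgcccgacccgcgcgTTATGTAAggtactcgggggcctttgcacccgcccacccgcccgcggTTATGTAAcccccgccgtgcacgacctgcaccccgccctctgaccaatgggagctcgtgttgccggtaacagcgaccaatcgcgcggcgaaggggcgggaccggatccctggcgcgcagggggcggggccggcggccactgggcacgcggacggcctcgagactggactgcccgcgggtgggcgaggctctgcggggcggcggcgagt
Tef: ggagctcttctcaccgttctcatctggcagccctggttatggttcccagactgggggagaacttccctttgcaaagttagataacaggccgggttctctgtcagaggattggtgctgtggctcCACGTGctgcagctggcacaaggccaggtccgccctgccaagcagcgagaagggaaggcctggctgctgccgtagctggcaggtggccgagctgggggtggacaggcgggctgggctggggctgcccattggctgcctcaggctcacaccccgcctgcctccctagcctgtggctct
Arntl: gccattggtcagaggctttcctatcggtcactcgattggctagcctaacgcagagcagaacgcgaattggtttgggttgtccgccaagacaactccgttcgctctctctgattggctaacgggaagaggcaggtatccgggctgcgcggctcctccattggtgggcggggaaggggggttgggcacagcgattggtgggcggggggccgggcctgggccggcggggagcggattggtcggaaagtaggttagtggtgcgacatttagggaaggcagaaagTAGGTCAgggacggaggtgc
Nfil3: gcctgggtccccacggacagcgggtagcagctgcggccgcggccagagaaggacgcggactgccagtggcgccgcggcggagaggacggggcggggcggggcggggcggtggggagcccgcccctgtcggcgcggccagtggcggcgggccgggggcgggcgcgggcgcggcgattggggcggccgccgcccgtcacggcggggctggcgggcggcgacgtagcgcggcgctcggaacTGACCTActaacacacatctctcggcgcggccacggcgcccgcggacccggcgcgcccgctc
Positions are counted from the transcription start that each window surrounds, which need not be the outer end of the gene. The Per3 window holds TTATGTAA at 2 places, beginning at -205 and -158, and the Tef window holds CACGTG at -127. The Arntl window holds TAGGTCA at 31 bases into the transcript, and the Nfil3 window holds it on the other strand at -12. Per3 and Tef fell with TGF-β while Arntl and Nfil3 rose. In the main fit the other genes with an E-box went against Tef where they were called. Bhlhe41 and Ciart were higher in both genotypes, Cry1 in WT and Per1 in KO. For Cry1 and Per1 this depended on the setting. Cry1 in WT lost its call under 6 of the 18 alternative settings. Per1 in WT went the way of Tef (-0.12), without a call in the main fit and with one under 10 of the 18. Per1 in KO had -0.01 with scaling by library size alone. These are matches of letters only, and binding was not measured.

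The next comparison asked how KO cells differed from WT cells within each condition. In SD, 4 of the 10 genes (Per1, Per3, Cry2 and Nr1d1) were lower in KO and 2 (Cry1 and Tef) were higher by edgeR's quasi-likelihood test at an FDR of 5%, beside 25.3% and 30.6% of all genes; the median log2 fold change was -0.08 over the 10 genes and 0.02 over all genes. The log2 fold changes of the 10 genes lay between -0.19 and 0.23, while those with TGF-β in WT lay between -1.01 and 0.28. Nr1d1, at 85.5 ± 3.51 CPM in WT-SD against 74.8 ± 3.73 CPM in KO-SD, had the largest among the called decreases, with a log2 fold change of -0.19 (SE 0.0383, edgeR adjusted p = 7.56e-05). Per3, at 48.2 ± 0.700 and 43.1 ± 2.41 CPM, had -0.16 (SE 0.0471, edgeR adjusted p = 0.00476). Per1, at 31.1 ± 1.44 and 27.7 ± 2.07 CPM, had -0.17 (SE 0.0560, edgeR adjusted p = 0.0126), and Cry2, at 26.2 ± 1.19 and 23.5 ± 0.844 CPM, had -0.16 (SE 0.0612, edgeR adjusted p = 0.0299). In each of these 4 genes all KO-SD libraries were below all WT-SD libraries. The 4 genes were picked by their calls and the share of all genes without overlap was not computed, so this adds nothing to the calls. Tef, at 152 ± 2.89 and 163 ± 4.79 CPM, was higher by 0.10 (SE 0.0295, edgeR adjusted p = 0.00385), and Cry1, at 8.13 ± 0.652 and 9.52 ± 0.452 CPM, by 0.23 (SE 0.0971, edgeR adjusted p = 0.0472). Clock, Per2, Nr1d2 and Dbp were not called, with log2 fold changes of 0.01, -0.07, 0.04 and -0.08 and 95% intervals of -0.05 to 0.08, -0.20 to 0.06, -0.04 to 0.11 and -0.17 to -0.00.

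The calls of Per3 and Nr1d1 in SD held under all 18 alternative settings. That of Cry1 was lost under 12 of them, among them those without any 1 of WT-SD replicates 2 or 3, the WT-TGF libraries, KO-SD replicates 1 or 2, or KO-TGF replicates 1 or 3 (log2 fold change 0.16 to 0.25). That of Cry2 was lost without WT-SD replicates 1 or 3 or KO-SD replicates 1 or 3 (-0.15 to -0.14), with DESeq2 (-0.17) and with no filter on low values (-0.13), and that of Per1 without WT-SD replicate 1 (-0.13) or KO-SD replicate 2 (-0.11). Dbp gained a call without WT-SD replicate 3 (-0.12) or any KO-TGF library (-0.10). With scaling by library size alone the calls of Tef (0.03) and Cry1 (0.15) were lost, Dbp gained a call (-0.16), and Clock (-0.06) and Nr1d2 (-0.04) changed sign.

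In TGF-β, Per3 was lower in KO and Per1 and Nr1d2 were higher by the same edgeR test, beside 27.8% of all genes lower and 27.2% higher, with a median of 0.03 over the 10 genes and 0.00 over all genes. Per3, with a mean of 26.8 CPM in WT-TGF against 23.4 CPM in KO-TGF, had a log2 fold change of -0.20 (SE 0.0591, edgeR adjusted p = 0.00588). It was the gene of the 10 that was called lower in KO in both conditions. Nr1d2, at 108 ± 1.09 and 121 ± 1.68 CPM, had 0.16 (SE 0.0381, edgeR adjusted p = 0.000740), and Per1, at 28.6 ± 1.51 and 31.6 ± 0.953 CPM, had 0.14 (SE 0.0571, edgeR adjusted p = 0.0356). In all 3 genes, picked by their calls, the libraries of the 2 genotypes did not overlap, and the share of all such genes was again not computed. For the remaining 7 genes the log2 fold changes lay between -0.08 (Per2, 95% interval -0.20 to 0.05) and 0.15 (Cry1, 95% interval -0.04 to 0.34). Cry1 was called without KO-TGF replicate 2 (0.28, edgeR adjusted p = 0.0163). The call of Per3 was lost without WT-TGF replicate 2 (-0.15) or KO-TGF replicate 3 (-0.15), and that of Per1 without WT-TGF replicate 1 (0.13), WT-TGF replicate 3 (0.11) or KO-TGF replicate 1 (0.14). With scaling by library size alone the calls of Per1 (0.02) and Nr1d2 (0.04) were lost, Clock (-0.17) and Per2 (-0.20) were called lower, and Cry2 (-0.08), Nr1d1 (-0.09), Dbp (-0.06) and Tef (-0.10) changed sign, with Nr1d1 and Tef then called lower. DESeq2 did not call Per1 (0.16).

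**Figure D5:**
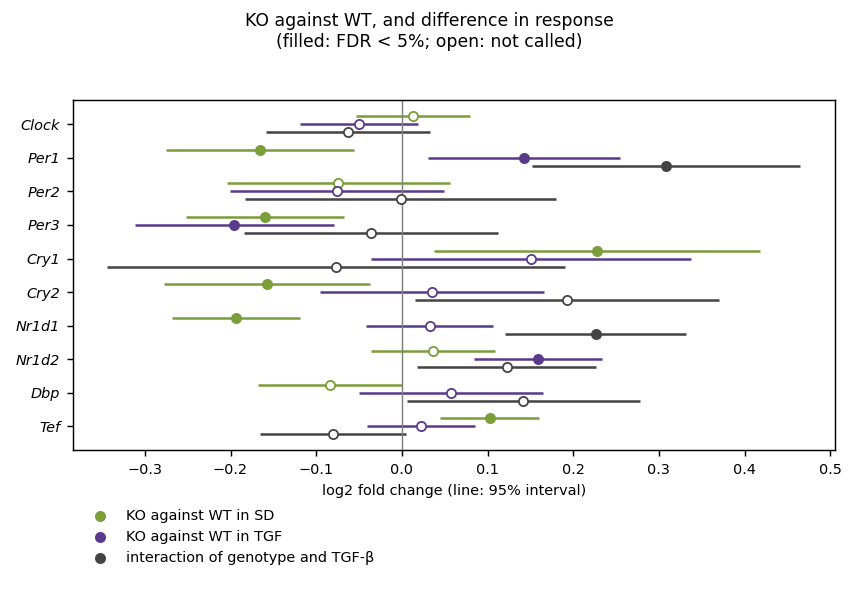
Log2 fold change between KO and WT in SD and in TGF, and the response to TGF-β in KO minus that in WT (x axis), for the 10 clock genes (y axis), with lines for the 95% interval, filled points for calls at an FDR of 5% and open points for no call. Per1 and Nr1d1 lie left of zero in SD and have a filled point right of zero for the difference in response.

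Whether the response to TGF-β differed between the genotypes was tested with the interaction term of edgeR's quasi-likelihood fit. It was higher in KO for 2 of the 10 genes, Per1 and Nr1d1, beside 8.77% of all genes, and lower in KO for 0 of the 10, beside 16.6% of all genes. By an unadjusted p under 0.05, 4 genes were higher and 0 lower, and DESeq2 at the same FDR called 2 higher and 0 lower. The shares of all genes by these 2 measures are not given here, so the 2 pairs of counts have no background to be read against. The Per1 response was higher in KO by 0.31 on the log2 scale (SE 0.0800, 95% interval 0.15 to 0.47, edgeR adjusted p = 0.00399), and that of Nr1d1 by 0.23 (SE 0.0539, 95% interval 0.12 to 0.33, edgeR adjusted p = 0.00179). For Per1 the responses had opposite signs, -0.12 in WT, which was not called, and 0.19 in KO. Both genes had their lowest group mean in KO-SD and their highest in KO-TGF. Both calls held under the 17 alternative settings of this term, with differences of 0.25 to 0.36 for Per1 and 0.18 to 0.26 for Nr1d1. The genes with the largest responses did not pass the test of a difference. The interaction was 0.14 for Dbp (95% interval 0.01 to 0.28, edgeR adjusted p = 0.142), -0.04 for Per3 (95% interval -0.18 to 0.11, edgeR adjusted p = 0.790) and -0.08 for Tef (95% interval -0.17 to 0.00, edgeR adjusted p = 0.191). For Clock it was -0.06 (-0.16 to 0.03), for Per2 -0.00 (-0.18 to 0.18) and for Cry1 -0.08 (-0.34 to 0.19). Cry2 had 0.19 (0.02 to 0.37, edgeR adjusted p = 0.125) and Nr1d2 0.12 (0.02 to 0.23, edgeR adjusted p = 0.0938), so that the calls of both in WT and not in KO do not show a difference between the genotypes. Further calls appeared for Cry2 without KO-TGF replicate 2 (0.28), for Nr1d2 (0.18) without KO-SD replicate 1, and for Nr1d2 (0.17) and Dbp (0.22) without KO-TGF replicate 3, and scaling by library size alone called Tef lower (-0.13).

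Of the 18 further clock genes, 6 were higher and 4 lower in KO than in WT in SD, 8 were higher and 6 lower in TGF, and the response to TGF-β was higher in KO for 3 and lower for 2. Among all genes the shares higher and lower were 30.6% and 25.3% in SD, 27.2% and 27.8% in TGF, and 8.77% and 16.6% for the difference in response. Rora was lower in KO in both conditions. It had 91.7, 90.2 and 85.9 CPM in WT-SD, against 68.9, 63.2 and 61.7 CPM in KO-SD, and 59.8, 57.4 and 59.5 CPM in WT-TGF, against 37.0, 37.3 and 37.5 CPM in KO-TGF. The 4 groups of Rora did not overlap. Its log2 fold change between KO and WT was -0.47 (SE 0.0395, edgeR adjusted p = 1.37e-11) in SD and -0.66 (SE 0.0460, edgeR adjusted p = 1.59e-13) in TGF. Bhlhe41 was lower in KO in SD, by -0.41 (SE 0.0359, edgeR adjusted p = 2.40e-11), and higher in TGF, by 0.17 (edgeR adjusted p = 2.21e-05; 0.05 and not called with scaling by library size alone), and its response was greater in KO by 0.59 (SE 0.0474, edgeR adjusted p = 3.70e-11). Wee1 had 25.3 ± 0.570 CPM in WT-SD, 16.1 ± 0.386 CPM in WT-TGF, 29.6 ± 0.943 CPM in KO-SD and 13.2 ± 0.501 CPM in KO-TGF, and its interaction was -0.52 (SE 0.0840, edgeR adjusted p = 1.54e-05). Bhlhe40 was lower in KO in TGF (-0.12, edgeR adjusted p = 0.000141), a call kept under all 18 settings. In SD it had -0.02 (edgeR adjusted p = 0.618), called only with scaling by library size alone (-0.09). Its interaction of -0.10 (edgeR adjusted p = 0.0555) gained a call under 6 of 17 settings. The interactions of Arntl (-0.08, edgeR adjusted p = 0.540) and Nfil3 (0.14, edgeR adjusted p = 0.242) were not called. The genotype differences of Arntl were -0.04 (edgeR adjusted p = 0.633) in SD and -0.11 (edgeR adjusted p = 0.0606) in TGF, where Arntl was called lower when KO-TGF replicate 3 (-0.14) or KO-SD replicate 1 (-0.11) was left out, or when TMM factors were not used (-0.23), and those of Nfil3 -0.10 (edgeR adjusted p = 0.191) and 0.04 (edgeR adjusted p = 0.558). Ciart, an E-box repressor near the limit of the filter, had 3.46, 2.87 and 3.01 CPM in WT-SD, against 4.64, 4.93 and 3.17 CPM in KO-SD, and 4.25, 4.63 and 3.75 CPM in WT-TGF, against 6.63, 8.70 and 7.50 CPM in KO-TGF. Its difference in SD, where the libraries overlapped, was 0.44 (SE 0.160, edgeR adjusted p = 0.0193), a call lost without WT-SD replicates 2 or 3 or KO-SD replicates 1 or 2 (0.33 to 0.42), and in TGF 0.85 (SE 0.138, edgeR adjusted p = 4.71e-06). The WT-TGF libraries held 2, 4 and 0 counts of Npas2, which encodes a paralogue of CLOCK, and the KO-TGF libraries 11, 8 and 7, too few for a level.

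The 3 genes whose pattern over the 12 libraries was most like that of Per3, the gene of the 10 with the widest range, were Sik2, Rere and Mapre2, by the root mean square of the difference between the centred log2 CPM values among the 11477 genes. The distances were 0.0363 for Sik2, 0.0620 for Rere and 0.0626 for Mapre2. Sik2, which encodes a salt-inducible kinase, had group means of 61.3, 35.2, 57.9 and 31.1 CPM in WT-SD, WT-TGF and the KO groups in the same order, beside 48.2, 26.8, 43.1 and 23.4 CPM for Per3.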

How the data were processed

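Counts per gene were deposited by the authors as whole numbers from single-end mRNA-seq reads, aligned with TopHat 2.1.1 to mm10 and counted with HTSeq 0.6.0 by strand over RefSeq genes, per the study's methods and the submitters' processing notes. Reads outside genes and reads mapped to several places (11.2% to 11.7%) stayed out. From the counts, exon lengths (GENCODE vM21, union of exons, known for 24718 genes) gave RPKM for the filter, and edgeR 4.0.16 in R 4.3.3 gave TMM factors (0.900 to 1.09), CPM and the quasi-likelihood test, with 1 mean per group over 12 libraries. P-values were Benjamini-Hochberg adjusted over 11477 genes. SE is the absolute log2 fold change over the square root of F. Depth was 19898050 to 22827706 counts. Intervals of 95% take the estimate as normal with this SE. The fits were tested on simulated data. Alternatives were no TMM factors (library size alone), DESeq2 1.42.0, other filters, fits of the compared groups, a replicate block and leaving out each library. All 10 clock genes are named in each comparison; of the 24 others at most the 6 called genes with the largest change, plus Arntl, Npas2, Nfil3, Bhlhe40 and Bhlhe41, and Rora and Wee1 were added in all comparisons after their values were seen. The 10 genes and the lists were chosen with earlier results of these data known.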

Additional observations from a re-analysis of the deposited data

Results flagged for a closer look

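These results were picked out because the interaction term of edgeR's quasi-likelihood fit found that the response to TGF-β differed between KO and WT cells. Groups of 3 libraries are too small for the test of an outlying library, which was not run. Of the 10 clock genes, Per1 had a response of -0.12 in WT, which was not called, and of 0.19 in KO. The difference was 0.31 on the log2 scale, between responses of opposite sign. With scaling by library size alone the Per1 responses were -0.27 in WT, which was called, and -0.01 in KO, which was not. Nr1d1 responded more in KO by 0.23, from 0.10 in WT to 0.33 in KO. Of the further clock genes, Bhlhe41 rose more in KO, with a difference of 0.59, and Wee1 fell more in KO, with a difference of -0.52. Rora had a difference of -0.19, which lost its call under 5 of 17 alternative settings (-0.24 to -0.14). Fbxw11, a part of a ubiquitin ligase that marks PER proteins for degradation, had 0.14, a call lost under 1 setting (0.10 to 0.19), and Gsk3b, a kinase of clock proteins, had 0.12, a call lost under 4 (0.08 to 0.17). The cells of the 2 genotypes also differed in their macrophage, podocyte, tubular and mesangial markers, whose part in these differences was not tested.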

How the results depend on the processing

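Over 18 alternative settings, 785 of 890 values of the 10 genes kept their direction and side of the threshold, 45 lost a call, 29 gained one and 31 changed sign. Scaling by library size alone moved the median log2 fold change of all genes to -0.16 (WT response), -0.23 (KO response), -0.05 (KO against WT in SD), -0.12 (in TGF) and -0.08 (interaction). Under it the counts of called genes became 0 clock genes and 6 further genes higher in WT; 1 and 7 higher, with 8 further genes lower, in KO; 0 clock genes higher and 7 further genes lower in SD; 0 clock genes higher, 5 lower and 3 further genes higher in TGF; and 1 clock gene lower, 1 further gene higher and 5 lower for the interaction. Sign changes under it were Nr1d1 in WT (-0.054), Per1 (-0.010) and Cry1 (-0.046) in KO, Clock (-0.061) and Nr1d2 (-0.037) in SD, and Cry2 (-0.085), Nr1d1 (-0.088), Dbp (-0.063), Tef (-0.098) and Nfil3 (-0.084) in TGF. The TMM factors were 1.086 to 1.094 in WT-SD, 0.978 to 0.983 in WT-TGF, 1.032 to 1.041 in KO-SD and 0.900 to 0.906 in KO-TGF. Leaving them out therefore moved the genes of a comparison together. Why the factors differed between the groups was not tested. DESeq2 called 1 clock gene higher in WT, 1 in SD and 1 in TGF, and 1 further gene lower for the interaction, where Per2 changed sign (0.025). With no filter 7 further genes were lower in KO and 5 for the interaction, and Bhlhe40 in SD had 0.012; with the CPM filter 4 were lower for the interaction. With the compared groups alone 1 clock gene was higher in SD and Clock had -0.0058.

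With each library left out in turn, clock genes called higher numbered 1 to 3 in WT (1 without WT-SD replicate 3, WT-TGF replicate 2 or KO-TGF replicate 3), 1 to 2 in SD, 1 to 3 in TGF (1 without WT-TGF replicates 1 or 3 or KO-TGF replicate 1) and 2 to 4 for the interaction (4 without KO-TGF replicate 3). Those called lower numbered 2 to 5 in SD (2 without WT-SD replicate 1) and 0 to 1 in TGF (0 without WT-TGF replicate 2 or KO-TGF replicate 3), and further genes lower for the interaction 1 to 3 (1 without any KO-TGF library). Ranges that crossed zero were, in SD, Bhlhe40 -0.046 to 0.0063, Clock -0.043 to 0.054 and Nr1d2 -0.017 to 0.084; in TGF, Cry2 -0.024 to 0.104 and Tef -0.0021 to 0.042; for the interaction, Per2 -0.046 to 0.047, Per3 -0.086 to 0.028, Cry1 -0.12 to 0.070 and Arntl -0.11 to 0.0060.

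Replicate numbers recur in all groups. Same-numbered libraries deviated together only weakly (r of -0.0341 to 0.152 over 18 pairs). Even so, among the libraries of other groups, 10 of 12 libraries correlated best with one of their own number. The main fit did not use the numbers as pairs, and whether they mark a shared batch was not tested. With a replicate block 5 further genes were lower for the interaction, Per1 in WT was called (-0.12) and the Nr1d2 interaction was called (0.12).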
